A study of Mus musculus with 11 samples.

Results

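The glucocorticoid receptor gene Nr3c1 and 5 of its known target genes, Tsc22d3, Fkbp5, Sgk1, Mt1 and Mt2, were followed in alveolar macrophages across a mouse model of macrophage activation syndrome (MAS). The 6 genes were taken by symbol from the 19505 gene symbols on the array, and each had a single transcript cluster, a set of probes for a transcript. All 6 were among the 12143 genes that passed the filter on low values. The rule takes them by symbol and not by level, though earlier results of these data were known when the 6 were picked. The resolution group was 4 female C57BL/6J mice that received 5 injections of CpG 1826 over 10 days and were lavaged on day 30. The acute group was 3 such mice given the same CpG course and lavaged on day 10. The control group was 4 such mice that received 5 injections of PBS over 10 days and were lavaged on day 10. CpG 1826 is a synthetic oligonucleotide ligand of the DNA sensor Tlr9. All animals were bought at 6 weeks of age and no engineered allele is named for any of them, and no control group of day 30 is among the samples. Cells of the bronchoalveolar lavage were purified by adherence, and their RNA was hybridised to Affymetrix arrays, 1 array for each mouse.

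Corticosterone, the main glucocorticoid of the mouse, enters cells and binds the receptor encoded by Nr3c1, which is held ready by the chaperone Hsp90 and its helper proteins. The bound receptor moves to the nucleus, binds DNA at response elements made of paired copies of a short half-site, and raises or lowers transcription of its target genes. In macrophages the receptor is best known for damping inflammatory gene expression. Tsc22d3 encodes GILZ, a leucine zipper protein that restrains NF-kB, and Fkbp5 encodes FKBP51, an Hsp90 helper that lowers the receptor's affinity for hormone. Sgk1 encodes a kinase of the cell survival and ion transport pathways that was named for its induction by serum and glucocorticoid. Mt1 and Mt2 encode metallothioneins, small cysteine-rich proteins that bind zinc and copper and are induced by metals as well as by glucocorticoids.

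The DNA around the start sites of the target genes is shown with its matches to the letters of known response elements. RefSeq windows of build GRCm38.p6 ran from 250 bases before to 50 bases after a start site. Windows of 5 of the 6 genes were used, 12 in all, and none of Nr3c1. Each window was searched on both strands for the receptor half-site TGTTCT, for the 2 half-sites facing each other with 3 bases between them (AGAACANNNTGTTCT, which overlaps 2 half-site matches), for the metal response element cores TGCACNC and TGCGCNC, for the forkhead core GTAAACA and for the cAMP response element half-site TGACG. In the sequences that follow, printed 5′ to 3′ on the strand of the gene, capitals mark every match. They are the Sgk1 window at chr10:21993640-21993939 (plus strand), the Tsc22d3 window at chrX:140600473-140600772 (minus strand), the Mt1 window at chr8:94178839-94179138 (plus strand) and the Mt2 window at chr8:94172368-94172667 (plus strand).
Sgk1: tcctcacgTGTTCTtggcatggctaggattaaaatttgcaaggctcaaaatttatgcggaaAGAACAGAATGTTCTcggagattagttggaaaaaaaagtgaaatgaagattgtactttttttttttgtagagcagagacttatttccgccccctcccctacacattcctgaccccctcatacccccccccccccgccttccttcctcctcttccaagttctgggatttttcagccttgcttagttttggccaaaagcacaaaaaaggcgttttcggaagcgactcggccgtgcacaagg
Tsc22d3: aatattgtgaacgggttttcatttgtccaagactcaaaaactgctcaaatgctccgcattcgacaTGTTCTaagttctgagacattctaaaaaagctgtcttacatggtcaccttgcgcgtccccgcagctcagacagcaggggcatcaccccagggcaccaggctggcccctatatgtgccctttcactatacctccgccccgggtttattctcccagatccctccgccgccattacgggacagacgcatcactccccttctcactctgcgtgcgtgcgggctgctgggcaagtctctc
Mt1: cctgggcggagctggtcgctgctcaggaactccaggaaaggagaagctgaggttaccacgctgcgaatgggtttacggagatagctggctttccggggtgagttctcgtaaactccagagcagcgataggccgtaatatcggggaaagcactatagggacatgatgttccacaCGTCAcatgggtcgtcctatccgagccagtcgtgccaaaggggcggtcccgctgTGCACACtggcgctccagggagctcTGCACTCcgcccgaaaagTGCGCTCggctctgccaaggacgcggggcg
Mt2: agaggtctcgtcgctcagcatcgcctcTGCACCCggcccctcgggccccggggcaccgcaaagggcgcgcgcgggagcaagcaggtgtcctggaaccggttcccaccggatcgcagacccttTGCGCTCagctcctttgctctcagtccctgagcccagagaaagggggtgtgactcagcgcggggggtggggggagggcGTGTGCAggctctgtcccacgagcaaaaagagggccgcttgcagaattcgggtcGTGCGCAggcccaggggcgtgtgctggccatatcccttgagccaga

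The full palindromic element was found in 3 of the 32851 mouse windows, or 0.009132%, and the Sgk1 window printed here was one of them. There it ran from 189 to 175 bases before the start site as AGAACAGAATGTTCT, with a further half-site 242 to 237 bases before the start. The window of the most upstream Tsc22d3 start site held 1 half-site, 185 to 180 bases before the start, and the single half-site occurred in 18.97% of all windows. Sgk1 has 5 further windows, which held no palindrome: 2 of them held a receptor half-site each, 1 held TGACG, 1 held TGCGCNC and 1 held no match. The other Tsc22d3 windows, at chrX:140548522-140548821 and chrX:140542619-140542918, held no receptor half-site, and the first of them held TGACG, and the Fkbp5 window at chr17:28486100-28486399 held none of the motifs. The Mt1 window held 3 metal response element cores, 2 TGCACNC and 1 TGCGCNC, and the Mt2 window held 4, 2 of each. At least 1 TGCACNC was in 12.59% of all windows and at least 1 TGCGCNC in 15.39%. The share of windows with several cores was not counted. The cAMP half-site TGACG, also in the Mt1 window, occurred in 20.81% of all windows, and the forkhead core, present in 3.65% of them, was in none of the 12. Mt2 and Mt1 lie next to each other on chromosome 8, with 5315 bases between the end of Mt2 and the annotated start of the Mt1 gene. That gene start, at base 94178883, lies before the start site on which the Mt1 window was set, at base 94179089. A match is a description of these letters and was not measured as a bound site. DNA outside the windows was not searched, so a window without a match does not show that a gene lacks an element. One cluster stood for each gene on the array, so start sites and isoforms cannot be told apart.

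Across the arrays the median intensity lay between 51.4 and 57.0, and between 8731 and 8952 genes lay above background. Background was the 90th percentile of 23 probe sets that match no mouse sequence, 6.12 to 6.24 on the log2 scale, and the 6 genes lay above it on all 11 arrays. All levels are log2(intensity + 1), and all differences are log2 differences from a limma fit over the 12143 genes, two-sided, with Benjamini-Hochberg adjustment over all of them and a threshold of 0.05. All 18 alveolar macrophage markers on the array were above background on all 11 arrays, as the labelled cell type calls for. Siglecf, Marco and Pparg were among them. Their presence does not mean equal levels, as 5 of the 18 rose, 3 fell and 10 were not called in resolution versus control. There 9.60% of all genes tested rose and 9.0% fell. In resolution versus acute 4 rose, 2 fell and 12 were not called, beside 7.77% risen and 6.69% fallen of all genes. In acute versus control 0 rose and 0 fell, where 0.239% of all genes were called, and 2 of the 18 differences were positive. The summed intensity of the 18 was 876356 to 935453 in resolution, 885119 to 924391 in acute and 943935 to 977117 in control. Of the T cell markers 7 of 11 were below background on all arrays, among them Cd3e, Cd3g and Cd8a, and 1 was above it on all. Their summed intensity was 380 to 513 in resolution, 498 to 801 in acute and 462 to 1663 in control. Of 6 T cell markers tested, 1 fell in resolution versus control and 1 in resolution versus acute, beside 9.0% and 6.69% of all genes. In both comparisons 0 of the 6 differences were positive. Of the NK and cytotoxic lymphocyte markers 7 of 10 were below background on all arrays, among them Ncr1, Gzma and Prf1. Of the 4 NK markers tested, 1 rose in acute versus control, where 0.239% of all genes were called. In resolution versus acute 3 of the 4 fell, beside 6.69% of all genes. The list's summed intensity was 259 to 281 in resolution, 502 to 630 in acute and 240 to 338 in control. Of 11 neutrophil markers 4 were above background on all arrays. The list's sum was 4541 to 8049 in resolution, 4764 to 5757 in acute and 3484 to 10590 in control. Of 7 tested, 1 rose and 2 fell in resolution versus control, beside 9.60% risen and 9.0% fallen of all genes. The 2 red cell genes on the array summed to 142 to 307 in resolution, 255 to 37032 in acute and 202 to 299 in control. Lung epithelium markers were present, with 8 of 16 above background on all arrays and a summed intensity of 13087 to 15169 in resolution, 26337 to 45564 in acute and 12336 to 22024 in control. The resolution arrays stood apart from the other arrays on the first principal component (28.4 to 35.4, against -27.3 to -12.4), which held 43.9% of the variance. Within resolution, replicate 2 stood apart on the second component (-16.7, against 4.50 to 8.43), and control replicate 4 did so on the third (-34.9, against 3.41 to 9.22 in the other controls).

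Tsc22d3 rose 4.47-fold in resolution against control and Nr3c1 was 1.36-fold lower, while Fkbp5, Sgk1, Mt1 and Mt2 passed no test in any comparison. In resolution versus control, 1 of the 6 genes rose and 1 fell, where 9.60% of all genes tested rose, 9.0% fell and 18.6% were called in either direction. In resolution versus acute, 1 of the 6 rose and 0 fell, where 7.77% of all genes rose, 6.69% fell and 14.5% were called. In acute versus control, limma called 0 of the 6, and 0 of them had an unadjusted p under 0.05. At the same threshold 0.239% of all genes were called there, and 1099 of the 12143 had an unadjusted p under 0.05. The median difference of the 6 genes was 0.12 in resolution versus control, where the median of all genes was 0.0035. The comparisons of resolution and of acute with control share the 4 control arrays, and resolution differs from control in the day of lavage as well as in treatment, so that day and treatment cannot be told apart. In bulk RNA, fewer cells of a type and less RNA per cell cannot be told apart. The p-values set each difference against a spread between mice, 1 array each. That spread was estimated over all groups together and drawn toward that of all genes. The number of mice limits the precision of every value.

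**Figure D1:**
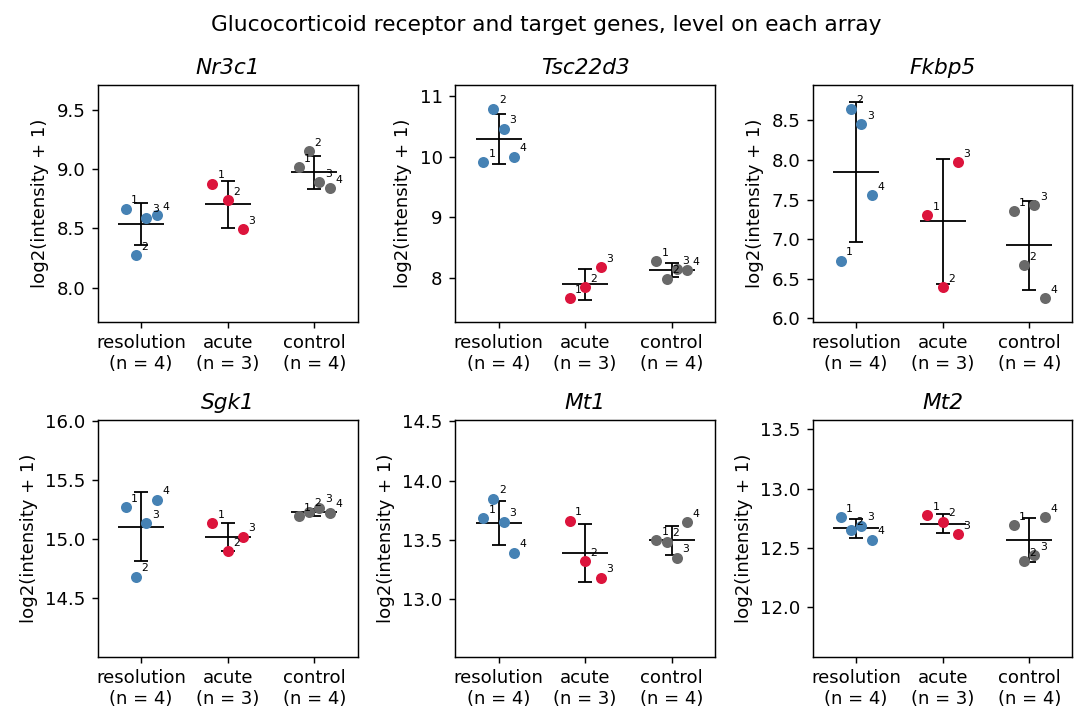
Level of each of the 6 genes on each array, as log2(intensity + 1), in resolution (n = 4), acute (n = 3) and control (n = 4). Points are arrays with their replicate numbers, the horizontal line is the group mean and bars are 1 SD. Tsc22d3 stands at 9.91 to 10.79 in resolution, above every acute and control array, and Nr3c1 in resolution lies below every control array.

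Nr3c1, the receptor, had levels of 8.66, 8.27, 8.59 and 8.61 in resolution, 8.88, 8.74 and 8.49 in acute, and 9.02, 9.15, 8.89 and 8.84 in control. All 4 resolution arrays lay below all 4 control arrays, while acute overlapped both. In resolution the level averaged 8.53 ± 0.18 (SD, n = 4), against 8.97 ± 0.14 (SD, n = 4) in control, a difference of -0.44 ± 0.13 (SE), or 1.36-fold lower (95% interval 1.11 to 1.65). The adjusted p of limma was 0.0338, close to the threshold, and the call was lost in 7 of 23 alternative analyses. Without resolution replicate 2, which had the lowest Nr3c1 level of all arrays, the difference was -0.35 and the adjusted p 0.0790. Without resolution replicate 3 the adjusted p was 0.0588, and without control replicates 1, 2 and 3 in turn it was 0.0767, 0.0935 and 0.0508. In acute the level averaged 8.70 ± 0.19 (SD, n = 3), which differed from control by -0.27 ± 0.14 (SE, adjusted p 0.605). Resolution differed from acute by -0.17 ± 0.14 (SE, adjusted p 0.482).

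Tsc22d3, the gene of GILZ, had levels of 9.91, 10.79, 10.46 and 10.00 in resolution, 7.66, 7.84 and 8.17 in acute, and 8.27, 7.98, 8.14 and 8.12 in control. Resolution overlapped neither other group, and acute and control overlapped each other. The level averaged 10.29 ± 0.41 (SD, n = 4) in resolution and 8.13 ± 0.12 (SD, n = 4) in control, and the difference was 2.16 ± 0.19 (SE), or 4.47-fold higher (95% interval 3.36 to 5.93), with an adjusted p of 1.11e-05 by limma. It was the 22nd largest rise of the 12143 genes and ranked 61st by p. Against acute, at 7.89 ± 0.26 (SD, n = 3), resolution was higher by 2.40 ± 0.20 (SE), or 5.26-fold (95% interval 3.87 to 7.15), with an adjusted p of 1.84e-05 by limma, the 12th largest rise. Acute differed from control by -0.24 ± 0.20 (SE, adjusted p 0.772), with a 95% interval of -0.68 to 0.21. On the intensity scale the mean of Tsc22d3 was 1289 in resolution, 239 in acute and 279 in control. The resolution arrays were the most spread, with 0.89 between the lowest and the highest, against 0.29 among the controls.

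Fkbp5, the gene of FKBP51, had levels of 6.73, 8.65, 8.45 and 7.56 in resolution, 7.31, 6.39 and 7.97 in acute, and 7.35, 6.67, 7.43 and 6.26 in control. The groups overlapped in every pair, with 3 of the 4 resolution arrays above all 4 controls and resolution replicate 1 among them. It was the most variable of the 6 genes within each group, with a range of 1.92 in resolution, 1.58 in acute and 1.17 in control. The level averaged 7.85 ± 0.88 (SD, n = 4) in resolution and 6.93 ± 0.56 (SD, n = 4) in control, a difference of 0.92 ± 0.44 (SE) with a 95% interval of -0.03 to 1.87 and an adjusted p of 0.170. Without resolution replicate 1 the difference was 1.29 and its adjusted p by limma was 0.0450. Against acute, at 7.22 ± 0.79 (SD, n = 3), resolution differed by 0.62 ± 0.47 (SE, adjusted p 0.426), and acute differed from control by 0.30 ± 0.47 (SE, adjusted p 0.893).

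Sgk1, which has the palindromic element in 1 of its 6 windows, had levels of 15.27, 14.68, 15.13 and 15.33 in resolution, 15.13, 14.90 and 15.02 in acute, and 15.20, 15.23, 15.27 and 15.22 in control. The controls lay within 0.0706 of each other, and resolution spread over 0.65 on both sides of them, mostly through the low replicate 2. Resolution differed from control by -0.12 ± 0.14 (SE, adjusted p 0.598), with a 95% interval of -0.43 to 0.18. All 3 acute arrays lay below all 4 controls, a difference of -0.21 ± 0.15 (SE) that did not pass the test (adjusted p 0.715). Resolution differed from acute by 0.09 ± 0.15 (SE, adjusted p 0.757).

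Mt1 had levels of 13.68, 13.85, 13.65 and 13.39 in resolution, 13.66, 13.32 and 13.18 in acute, and 13.50, 13.49, 13.35 and 13.65 in control. Mt2 had levels of 12.76, 12.65, 12.69 and 12.57 in resolution, 12.78, 12.72 and 12.62 in acute, and 12.69, 12.39, 12.44 and 12.76 in control. For both metallothioneins the groups overlapped in every pair. In resolution versus control Mt1 differed by 0.15 ± 0.14 (SE, adjusted p 0.510), with a 95% interval of -0.15 to 0.45. Mt2 differed by 0.10 ± 0.12 (SE, adjusted p 0.617), with a 95% interval of -0.15 to 0.35. In resolution versus acute the differences were 0.26 ± 0.15 (SE, adjusted p 0.285) for Mt1 and -0.04 ± 0.12 (SE, adjusted p 0.876) for Mt2. In acute versus control they were -0.11 ± 0.15 (SE, adjusted p 0.874) for Mt1 and 0.14 ± 0.12 (SE, adjusted p 0.786) for Mt2. These p-values are from the limma fit.

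Whether the arrays of the groups overlapped was set beside the same count over all genes. Resolution and control did not overlap for 2 of the 6, Nr3c1 and Tsc22d3, against 22.7% of all genes tested. Resolution and acute did not overlap for 1, Tsc22d3, against 26.3% of all genes. Acute and control did not overlap for 1, Sgk1, against 10.1% of all genes.

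**Figure D2:**
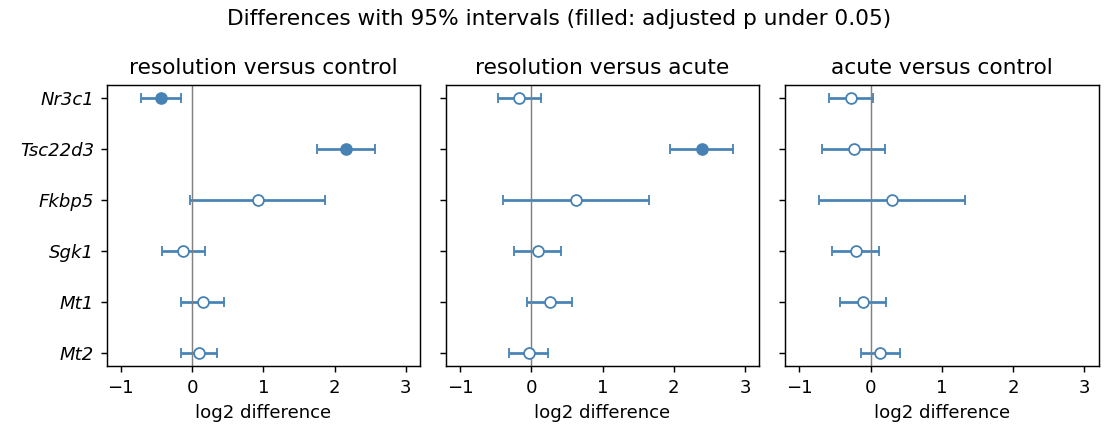
Log2 differences of the 6 genes with 95% intervals in resolution versus control, resolution versus acute and acute versus control, from the limma fit over all 11 arrays. Filled points passed an adjusted p of 0.05: Tsc22d3 at 2.16 and 2.40, and Nr3c1 at -0.44. The intervals of Fkbp5 are the widest of the 6.

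Within groups the 6 genes did not vary as 1 block. In resolution the order of the arrays was the same for Tsc22d3 and Fkbp5, with replicate 1 lowest, then 4, 3 and 2. Replicate 2, the array that stood apart on the second component, had the highest Tsc22d3, Fkbp5 and Mt1 of its group and the lowest Nr3c1 and Sgk1. Over the 11 arrays, with the group means taken out, the deviations of Tsc22d3 correlated with those of Fkbp5 at 0.77, of Nr3c1 at -0.79 and of Sgk1 at -0.81, while Mt1 and Mt2 correlated with each other at 0.58 and with Tsc22d3 at 0.11 and -0.04. These values describe 11 arrays that share their groups and, in part, 1 outlying array. Without resolution replicate 2 the Tsc22d3 difference from control remained called, at 1.99, the lowest value of any alternative.

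The genes whose levels followed each of the 6 most closely over the 11 arrays were taken by Pearson's r, with no test. For Tsc22d3 they were Fzd4, a Wnt receptor gene, at 0.99, Ergic3, a gene of traffic between endoplasmic reticulum and Golgi, at 0.99, and AI467606 at 0.98, and with the group means taken out these were 0.73, 0.84 and 0.57. Fzd4 averaged 9.57 ± 0.45 (SD, n = 4) in resolution, 7.26 ± 0.06 (SD, n = 3) in acute and 7.52 ± 0.03 (SD, n = 4) in control. For Nr3c1 they were Rexo4, the amino acid transporter gene Slc3a2 and the catalase gene Cat, each at 0.95. For Sgk1 they were Fnip1 at 0.97 and Ppp2r1b and Fndc3b at 0.95, and for Fkbp5 Fundc1 at 0.86, the leukotriene pathway gene Alox5ap at 0.85 and Sdf2 at 0.84. For Mt1 they were Xlr4c at 0.90, Ms4a6d at 0.87 and Scgb1b29 at 0.85, the last with group means of 5.31 to 5.40, below background. For Mt2 they were Zfp534 at 0.87, Zfp987 at 0.85 and the ribosomal protein gene Rpsa at 0.84. Zfp987, with group means of 6.31 to 6.45, and Zfp534 in control, with a mean of 6.38, lay near background. Neither metallothionein was among the 3 genes most like the other.

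Of the chaperones that hold the receptor, 11 of 14 listed genes were tested. In resolution versus control 1 rose and 1 fell, beside 9.60% risen and 9.0% fallen of all genes. Fkbp4, the gene of FKBP52, a helper that promotes hormone binding, had levels of 8.82, 8.68, 8.97 and 8.88 in resolution, 8.13, 8.12 and 8.15 in acute, and 8.42, 8.37, 7.94 and 7.75 in control. Its resolution arrays lay above all others, with differences of 0.72 ± 0.15 (SE, adjusted p 0.00540) from control and 0.71 ± 0.16 (SE, adjusted p 0.0119) from acute by limma. St13, which encodes an Hsp70 partner, fell by 0.44 on the log2 scale (adjusted p 0.0443), a call lost in 12 of 23 alternatives. Those included the fits without resolution replicates 1, 3 or 4, acute replicates 2 or 3, and control replicates 1, 2 or 4, with adjusted p between 0.0528 and 0.121. The median difference of the 11 genes was -0.01. Where limma called 18.6% of all genes in resolution versus control, it called 0 of 10 tested in the FKBP family beyond Fkbp5 and Fkbp4. The other comparisons gave 0 of these 10 as well. At an unadjusted p under 0.05 there were 3 in resolution versus control, 1 in resolution versus acute and 0 in acute versus control. Of all 12143 genes tested, 3804, 3497 and 1099 had such a p in these comparisons. Fkbp3 had the smallest p in resolution versus control, with a difference of 0.43 and an adjusted p of 0.0669.

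Of 6 tested genes of corticosteroid supply and related receptors, 3 fell and 1 rose in resolution versus control, beside 9.0% fallen and 9.60% risen of all genes. Against acute 3 fell and 0 rose, beside 6.69% and 7.77% of all genes, and 2 of the 6 differences were positive. The 3 that fell against control, Hsd11b1, Abcb1a and Abcb1b, regenerate or export steroid, and the 1 that rose, Nr3c2, is a receptor gene. Hsd11b1, the gene of the enzyme that regenerates active glucocorticoid from its inactive form, had levels of 9.91, 10.19, 9.35 and 9.94 in resolution, 11.15, 10.88 and 11.05 in acute, and 10.64, 11.15, 10.67 and 10.37 in control. The resolution arrays lay below all others, and Hsd11b1 fell, with log2 differences of -0.86 ± 0.19 (SE, adjusted p 0.0080 by limma) from control and -1.18 ± 0.21 (SE, adjusted p 0.00253) from acute. Abcb1a and Abcb1b encode the mouse P-glycoproteins, pumps that export corticosteroids among other compounds. Abcb1a stood at 8.0, 9.36, 8.14 and 7.38 in resolution, 9.76, 9.63 and 9.87 in acute, and 9.56, 9.29, 9.59 and 9.94 in control. Its replicate 2 of resolution reached into the control range, and the difference from control was -1.37 ± 0.32 (SE, adjusted p 0.00932). Abcb1b differed from control by -0.99 ± 0.17 (SE, adjusted p 0.00145), with 2 of its 4 resolution arrays above background.

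Nr3c2, the gene of the mineralocorticoid receptor, which also binds corticosterone, had levels of 6.68, 6.97, 7.55 and 5.53 in resolution, 5.28, 5.99 and 5.34 in acute, and 4.98, 6.25, 5.40 and 5.33 in control. The resolution arrays reached from the control range to the highest value of all, and 3 of the 4 were above background, against 0 of 3 in acute and 1 of 4 in control. The difference from control was 1.19 ± 0.38 (SE) with an adjusted p of 0.0442 by limma, and since most control arrays were below background its size is not a measured fold. That call was lost in 12 of the 22 alternatives that tested Nr3c2. Those included the fits without resolution replicates 1, 2 or 3, acute replicates 1 or 3, and control replicates 1, 3 or 4, with adjusted p between 0.0525 and 0.123. Between acute and control, limma called 0 of the 6 genes and 1 had an unadjusted p under 0.05, beside 1099 of all 12143 genes. It was H6pd, whose enzyme supplies the cofactor of Hsd11b1, with a difference of -0.69 ± 0.26 (SE, adjusted p 0.440).

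**Figure D3:**
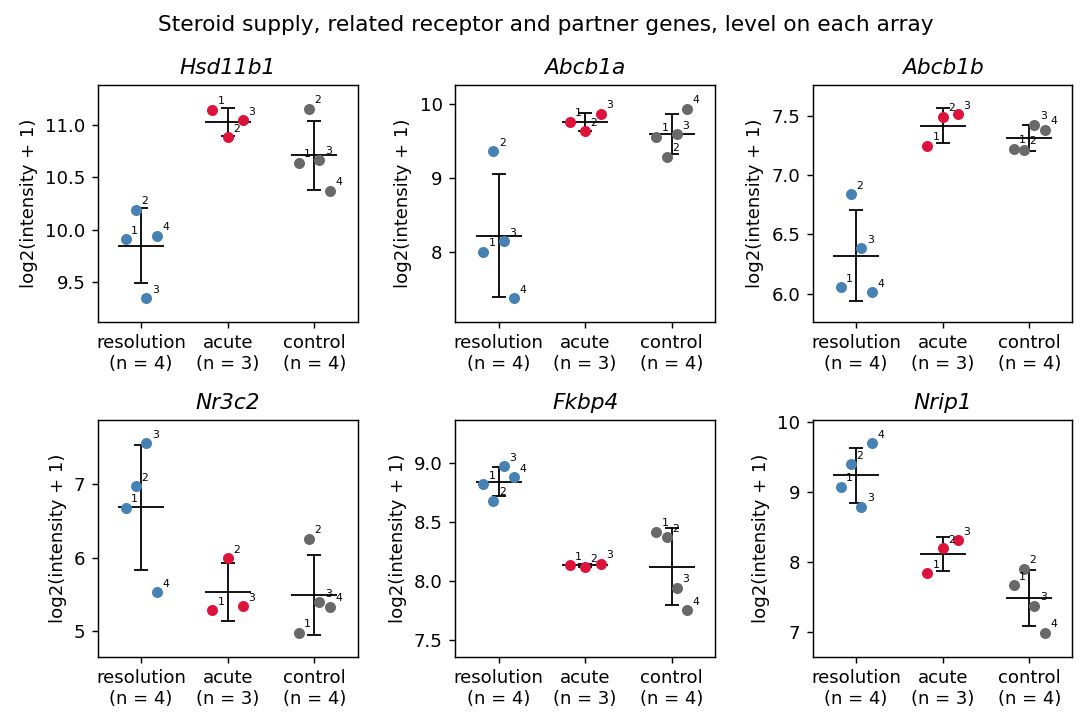
Level on each array, as log2(intensity + 1), of genes that supply or export steroid (Hsd11b1, Abcb1a, Abcb1b), of the related receptor gene Nr3c2, of the chaperone partner gene Fkbp4 and of the coregulator gene Nrip1, in resolution (n = 4), acute (n = 3) and control (n = 4). Points are arrays with their replicate numbers, lines are group means and bars are 1 SD. Hsd11b1 lies lower and Fkbp4 and Nrip1 higher on every resolution array than on any other array.

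Of the coregulators through which the receptor acts on transcription, 17 of 20 were tested. In resolution 5 rose and 1 fell against control, beside 9.60% risen and 9.0% fallen of all genes. Against acute 3 rose and 0 fell, beside 7.77% and 6.69% of all genes. Nrip1, the gene of the corepressor RIP140, had levels of 9.08, 9.40, 8.79 and 9.70 in resolution, 7.84, 8.19 and 8.31 in acute, and 7.67, 7.90, 7.37 and 6.98 in control. No resolution array overlapped the other groups, and Nrip1 was higher by 1.76 ± 0.22 (SE) than in control (adjusted p 1.65e-04 by limma) and by 1.13 ± 0.24 (SE) than in acute (adjusted p 0.00803). The coactivator gene Ncoa1 rose by 0.72 ± 0.15 (SE, adjusted p 0.00496) against control, and Crebbp, an acetyltransferase gene, fell by 0.55 ± 0.13 (SE, adjusted p 0.00950) on the log2 scale. The rise of Ncoa1 against acute was 0.70, and without acute replicate 3 its adjusted p was 0.0521. The rise of the coactivator gene Ncoa2, 0.60 against control (adjusted p 0.0357), was lost with arrays scaled to a common median, with quantile normalization, and without any 1 of the 4 resolution arrays or control replicates 3 and 4, with adjusted p between 0.0507 and 0.0968. The deacetylase gene Hdac2 rose by 0.59 against acute (adjusted p 0.0233), a call lost under both scalings and without resolution replicates 1 and 3 and acute replicates 1 and 2, with adjusted p between 0.0535 and 0.0930. The median difference of the 17 genes was -0.16 against control and 0.02 against acute.

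Among 40 other genes known to be induced by glucocorticoids, 30 were tested. Against control 9 rose, 2 fell and 19 were not called in resolution, beside 9.60% risen and 9.0% fallen of all genes, and the median of the 30 differences was 0.03. Klf9, a transcription factor gene, had levels of 7.78, 8.04, 7.96 and 7.92 in resolution, 6.70, 6.72 and 6.47 in acute, and 6.76, 6.74, 6.32 and 6.34 in control. Its resolution arrays were a tight group above all others, with differences of 1.38 ± 0.13 (SE, adjusted p 2.38e-05 by limma) from control and 1.29 ± 0.15 (SE, adjusted p 1.10e-04) from acute. Rgs2, a damper of G protein signals, rose by 2.24 ± 0.25 (SE, adjusted p 6.19e-05) and Angptl4, an inhibitor of lipoprotein lipase, by 2.06 ± 0.21 (SE, adjusted p 3.37e-05) against control. The clock gene Per1, named after its value was seen, rose by 1.12 ± 0.18 (SE, adjusted p 8.11e-04). Of the 9, Cebpd lay below background on every resolution and control array, so its call carries no fold.

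Bcl6, a transcriptional repressor gene, went the other way. It had levels of 7.29, 6.20, 6.76 and 7.33 in resolution, 9.74, 8.91 and 10.08 in acute, and 9.38, 10.21, 9.89 and 9.30 in control. No resolution array overlapped the others, 3 of the 4 were above background, and Bcl6 fell, with log2 differences of -2.80 ± 0.31 (SE, adjusted p 5.60e-05 by limma) from control and -2.68 ± 0.33 (SE, adjusted p 2.16e-04) from acute. Other long known targets passed no test against control, and are named here after their values were seen. Dusp1, a MAP kinase phosphatase gene, differed by 0.06 ± 0.14 (SE, adjusted p 0.809), Errfi1 by -0.01 ± 0.17 (SE, adjusted p 0.972) and Cdkn1a by 0.21 ± 0.11 (SE, adjusted p 0.226). Against acute 9 of the 30 rose and 3 fell, beside 7.77% and 6.69% of all genes. Acute and control differed at the threshold of limma in 0 of the 30. There 3 had an unadjusted p under 0.05, beside 1099 of all 12143 genes. Stom had the smallest p with a difference of -0.45 ± 0.12 (SE, adjusted p 0.238). The intensity trend in the fit moved the adjusted p of Stom to 0.0358.

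**Figure D4:**
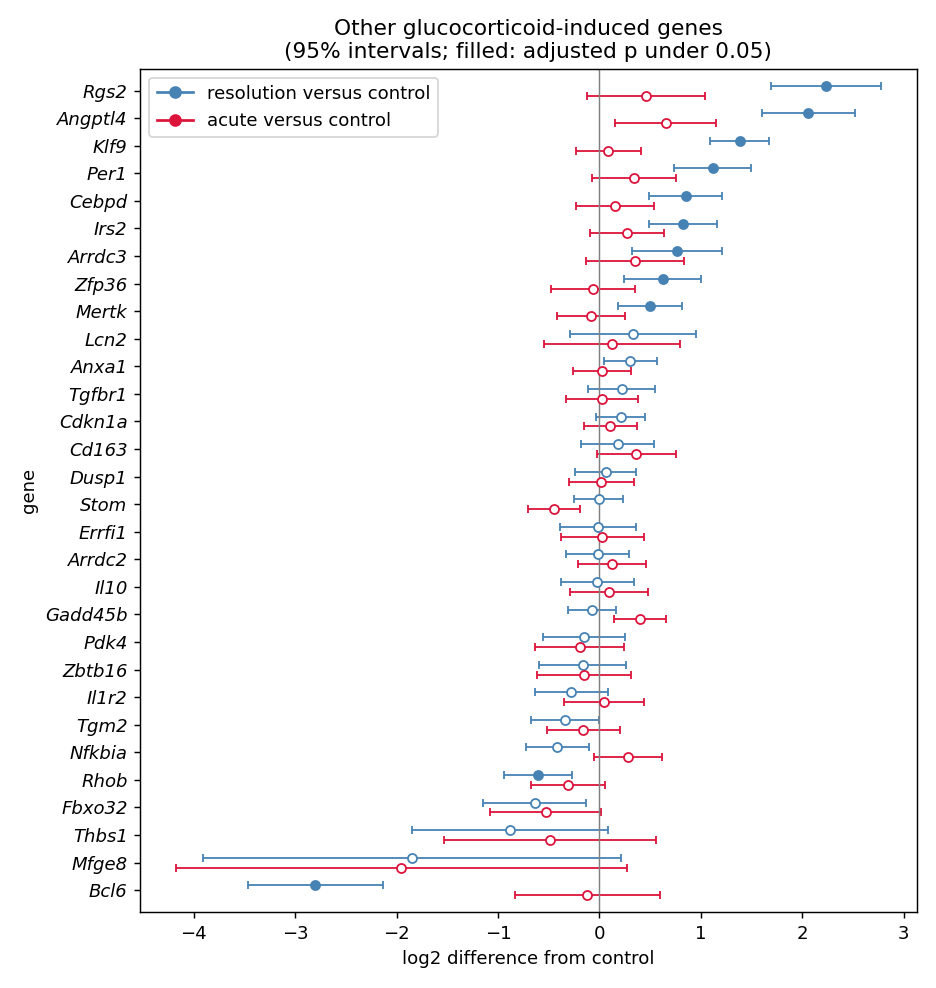
Log2 differences from control of the 30 other glucocorticoid-induced genes tested, with 95% intervals, in resolution (blue) and acute (red), ordered by the resolution difference. Filled points passed an adjusted p of 0.05. In resolution 9 genes rose, from Mertk at 0.50 to Rgs2 at 2.24, and Rhob and Bcl6 fell, while no acute point is filled.

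Of 13 tested inflammatory genes that glucocorticoids are known to repress, 2 rose and 3 fell in resolution versus control. Of all genes 9.60% rose and 9.0% fell there. Against acute 1 rose and 4 fell, beside 7.77% and 6.69% of all genes. The monocyte chemokine gene Ccl2 rose by 2.95 ± 0.22 (SE, adjusted p 3.52e-06 by limma) against control, where 3 of 4 arrays were above background, and Il1b rose by 0.75 ± 0.19 (SE, adjusted p 0.0137). The adhesion molecule gene Icam1 fell, at -1.95 ± 0.15 (SE, adjusted p 3.52e-06), as did the neutrophil chemokine gene Cxcl2, at -1.44 ± 0.30 (SE, adjusted p 0.00496). Members of this list thus moved in both directions, with a median difference of -0.10. Against acute, Cxcl2 differed by -1.26, with an adjusted p of 0.0945 without acute replicate 1 and 0.0622 without acute replicate 2. Il6 differed by -0.83 against acute (adjusted p 0.0321), with 1 resolution array above background, and its call was lost in 8 of 23 alternatives, among them each one without any 1 of the 3 acute arrays or resolution replicates 1, 2 and 3 (adjusted p 0.0516 to 0.130). In acute versus control limma called 0 of the 13, with 2 at an unadjusted p under 0.05, beside 1099 of all 12143 genes. Il1b differed there by 0.81 ± 0.20 (SE, adjusted p 0.186).

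The Sgk kinases with their activators and substrates gave 16 tested genes of 19. In resolution versus control 2 rose and 0 fell, beside 9.60% risen and 9.0% fallen of all genes. Ndrg1, whose protein Sgk1 phosphorylates, had levels of 7.68, 7.93, 7.52 and 7.64 in resolution, 6.54, 6.99 and 6.49 in acute, and 6.45, 6.74, 7.00 and 6.98 in control. Every resolution array was above every other array, by 0.90 ± 0.16 (SE, adjusted p 0.00182 by limma) on average over control and 1.02 ± 0.17 (SE, adjusted p 0.00185) over acute. The related kinase gene Sgk3 rose by 0.57 ± 0.17 (SE, adjusted p 0.0309), and that call was lost without resolution replicates 2 and 4 and control replicates 1, 2 and 4 (adjusted p 0.0537 to 0.0884). For acute versus control limma called 0 of the 16, with 2 at an unadjusted p under 0.05, beside 1099 of all 12143 genes. The smallest p was that of Foxo1, at 0.35 ± 0.15 (SE, adjusted p 0.512). The other genes of the Tsc22 family did not share the rise of Tsc22d3 at the threshold. Limma called 0 of the 3. At an unadjusted p under 0.05 there was 1 in resolution versus control, 0 in resolution versus acute and 1 in acute versus control. Of all 12143 genes tested, 3804, 3497 and 1099 had such a p in these comparisons. Tsc22d4 had the smallest p in resolution versus control, at 0.31 ± 0.12 (SE, adjusted p 0.0885).

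Beside the metallothioneins, 23 of 26 genes of metal-responsive regulation and zinc transport were tested. In resolution versus control 1 rose and 5 fell, beside 9.60% risen and 9.0% fallen of all genes. Slc39a10, a zinc importer gene, had levels of 11.25, 11.32, 11.20 and 11.11 in resolution, 9.05, 9.83 and 10.19 in acute, and 9.53, 10.19, 9.82 and 9.48 in control. Its resolution arrays lay together above all others, higher by 1.47 ± 0.22 (SE, adjusted p 6.06e-04 by limma) than control and by 1.53 ± 0.24 (SE, adjusted p 0.00110) than acute. The transporter genes Slc39a2, Slc30a6 and Slc39a6 fell, with differences of -0.85, -0.84 and -0.76 (adjusted p 0.00219, 0.00231 and 0.00188). Mtf1, the gene of the factor that binds metal response elements, differed by 0.36 ± 0.13 (SE, adjusted p 0.0789) and is named after its value was seen. Beside 7.77% risen and 6.69% fallen of all genes, 2 rose and 4 fell against acute. Among them the zinc exporter gene Slc30a1 rose by 0.60 (adjusted p 0.0338), which was lost under both scalings and without resolution replicates 1, 2 and 3 and acute replicates 2 and 3, with adjusted p between 0.0596 and 0.127. For acute versus control limma called 0 of the 23, with 1 at an unadjusted p under 0.05, beside 1099 of all 12143 genes. That gene, Slc39a14, differed by -0.49 ± 0.18 (SE, adjusted p 0.427).

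Immediate early and handling stress genes respond within minutes to growth factors, to adherence and to cell isolation. In resolution they moved in both directions, more of them up. Of 19 tested, 10 rose, 4 fell and 5 were not called against control, beside 9.60% risen and 9.0% fallen of all genes. Their differences from control ran from -1.26 to 4.28. Against acute 9 rose and 2 fell, beside 7.77% and 6.69% of all genes. In acute versus control limma called 0 of the 19, with 3 at an unadjusted p under 0.05, beside 1099 of all 12143 genes. Their summed intensity, over 21 genes on the array, was 132086 to 168290 in resolution, 93448 to 112210 in acute and 100426 to 114833 in control, with Ier3, Klf2 and Hspa1b below background on all arrays. Fosb rose by 4.28 ± 0.31 (SE, adjusted p 3.49e-06 by limma) against control, Nr4a2 by 2.51 ± 0.27 (SE, adjusted p 5.60e-05) and Klf4 by 2.03 ± 0.14 (SE, adjusted p 2.99e-06). Their part in the rise of Tsc22d3, Klf9, Rgs2 and Per1 was not tested. Lung epithelium markers moved in acute as well as in resolution. Of 13 tested, 4 rose and 0 fell in acute versus control, where 0.239% of all genes were called. In resolution versus acute 0 rose and 9 fell, beside 7.77% and 6.69% of all genes. In resolution versus control 0 rose and 4 fell, beside 9.60% and 9.0% of all genes. The part of the lung epithelium markers in the differences of the 6 genes was not tested. Nor was that of the alveolar macrophage, T cell, NK, neutrophil and red cell markers.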

How the data were processed

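Each of the 11 arrays has 1 column of deposited linear intensity values, made with Affymetrix Expression Console per the submitters' processing notes. No source used here gives the program's version or algorithm. Per the labels' protocols, Trizol was used for extraction and a 3' IVT Pico kit for biotin labelling. No further scaling was applied, and log2(value + 1) of the deposited intensities is the log2 scale of all levels. Of 28846 probe sets, 19572 had 1 gene symbol in the platform annotation, giving 19505 symbols, and the cluster with the highest mean stood for a symbol. A gene was tested where at least 3 arrays lay above their own 40th percentile, which left 12143 genes and could have kept a gene for its level in 1 group; all 6 genes of this report lay above background on every array.

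In R 4.3.3, limma 3.58.1 estimated a mean for each group from all 11 arrays together, with 8 residual and 4.48 prior degrees of freedom, two-sided, and Benjamini-Hochberg adjustment over all genes tested. The background level was chosen after the data had been seen. The genes and gene lists were chosen with earlier results of these data known, and apart from the 6 genes a list's named genes are up to 4 called genes of largest difference, or the gene of smallest p where the list had no call, unless said otherwise. The 3 genes most like each of the 6 were taken by Pearson's r. Replicate numbers were not used to pair the samples. In 10 pairs of same-numbered arrays the deviations from group means correlated at -0.12 to 0.09. Pairs of different numbers were not set beside them, so these values do not settle whether the numbers pair the arrays. Alternatives covered scaling, pseudocount, filter, clusters, groups in the fit, variance prior, array weights, the replicate block and leaving out each array. Promoter windows are from RefSeq on GRCm38.p6, and no source used here names the build of the array annotation.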

Additional observations from a re-analysis of the deposited data

Results flagged for a closer look

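The 6 genes and those named from the lists, 49 in all, gave 98 groups of 4 arrays, and 4 groups held an array whose gap to its nearest neighbour was too large a share of the group's range by Dixon's 95% critical value. Chance gives about 1 in 20 such groups, and 4.08% were found here. None of the 6 receptor and target genes was among them. Fkbp9, an FKBP family gene of the endoplasmic reticulum, stood at 7.93 (log2 level) on resolution replicate 2, against 6.64 to 6.85 on the other resolution arrays. The phosphatase gene Ppp5c, whose protein binds Hsp90, stood at 12.51 on resolution replicate 1, against 12.28 to 12.31 on the others. The immediate early gene Nr4a1 stood at 14.57 on resolution replicate 4, against 13.78 to 13.91. The zinc exporter gene Slc30a1 stood at 8.93 on control replicate 3, against 9.33 to 9.38 on the other controls.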

How the results depend on the processing

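The calls of Tsc22d3 in resolution versus control and versus acute held under all 23 alternatives, with adjusted p of limma from 1.58e-06 to 1.06e-04 and from 2.28e-06 to 2.32e-04. The 18 differences of the 6 genes were recomputed under 23 alternatives. Of these values 406 stayed on the same side of the threshold, 7 lost the call (all Nr3c1 in resolution versus control) and 1 gained it (Fkbp5). For the other named genes 1451 stayed, 61 lost a call and 4 gained one. Of the 6 genes, 2 were called in resolution versus control, against 1 with an intensity trend in the variance prior (adjusted p of Nr3c1 0.0535), 1 with the replicate block (0.0575), and 1 to 3 when 1 array was left out. The replicate numbers share no stated source, and with the block 25 genes were called between acute and control, against 29 without it. The counts were 2120 against 2259 in resolution versus control, and 1455 against 1755 in resolution versus acute. In acute versus control 16 genes were called with only these groups in the fit, 51 with the intensity trend, 54 with array weights, and 6 to 29 when 1 array was left out. In resolution versus acute leaving out 1 array gave 1069 (without acute replicate 1) to 1837 genes. Scaling moved the split of calls: in resolution versus acute 943 rose and 812 fell, against 673 and 989 after scaling to a common median and 685 and 1151 after quantile normalization. In resolution versus control it was 1166 and 1093, against 890 and 1198 and 1000 and 1260, and in acute versus control 23 and 6, against 25 and 3 and 29 and 3. The cause was not tested. Signal limits the low genes: among the named genes Cebpd and Hspa1b lay below background on every array compared, and Abcb1b, Nr3c2, Bcl6, Il6, Ccl2, H6pd and Fkbp9 on some. Nr3c2 was not tested with the filter at the 60th percentile.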
